A study of Mus musculus with 6 samples.

Results

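Transcripts of p53 and of genes tied to it were followed in 393P cells, an epithelial line from a murine lung adenocarcinoma, after ectopic expression of the EMT activator ZEB1. The set held 10 genes chosen by gene symbol, namely Trp53, its regulators Mdm2, Ccng1 and Cdkn2a, and the targets Cdkn1a, Bbc3, Bax, Zmat3, Sesn2 and Gdf15, out of 24214 RefSeq features in the tables, of which 13892 had enough reads to be tested. All 10 passed this filter on low counts, Gdf15 through its ZEB1 samples. Total RNA-seq on the SOLiD platform was performed on 3 samples transfected with empty vector (393P_vector) and 3 samples transfected with ZEB1 (393P_ZEB1). All 6 came from KP lung cancer cells of strain C57BL/6 grown in RPMI-1640 with serum, and transfectants of this study were selected with puromycin or G418. Counts of a gene add the transcripts of all its alleles. Whether each transfectant was 1 clone or a pool, and whether replicates were separate cultures, is not given in the sources used here. P-values then measure only the spread between these samples, which may be technical.

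p53 is a transcription factor that is kept scarce by the ubiquitin ligase MDM2 and accumulates after DNA damage or oncogene activity. It then binds DNA as a tetramer and switches on genes that stop the cell cycle, repair DNA or trigger apoptosis, and MDM2 is itself such a target, which closes a feedback loop. Cdkn2a encodes p16INK4a, an inhibitor of cyclin D kinases, and from another first exon ARF, which blocks MDM2. In lung adenocarcinoma, loss of p53 function marks progression to advanced tumors.

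Of the 10 genes, 2 were expressed at a higher level in 393P_ZEB1 cells and 1 at a lower level, and the other 7 did not pass the test. Gdf15, a secreted stress-induced cytokine of the TGF-beta superfamily, rose 11.3-fold (95% interval 7.16 to 17.9, n = 3 per group) from a level close to the limit of detection. Cdkn2a rose 1.83-fold (95% interval 1.49 to 2.24). Zmat3, which encodes a zinc finger RNA-binding protein, fell to 0.716 times the vector level (95% interval 0.605 to 0.847). Trp53 itself and the cell cycle inhibitor Cdkn1a had fold estimates of 0.884 and 1.02, and p53 protein was not measured here. The call was an adjusted p below 0.05 in edgeR's quasi-likelihood test with Benjamini-Hochberg adjustment over all 13892 tested genes. By that rule 37.6% of all tested genes differed between the groups, 18.3% higher and 19.3% lower in 393P_ZEB1, so 3 of 10 genes is a share near that of the transcriptome.

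**Figure D1:**
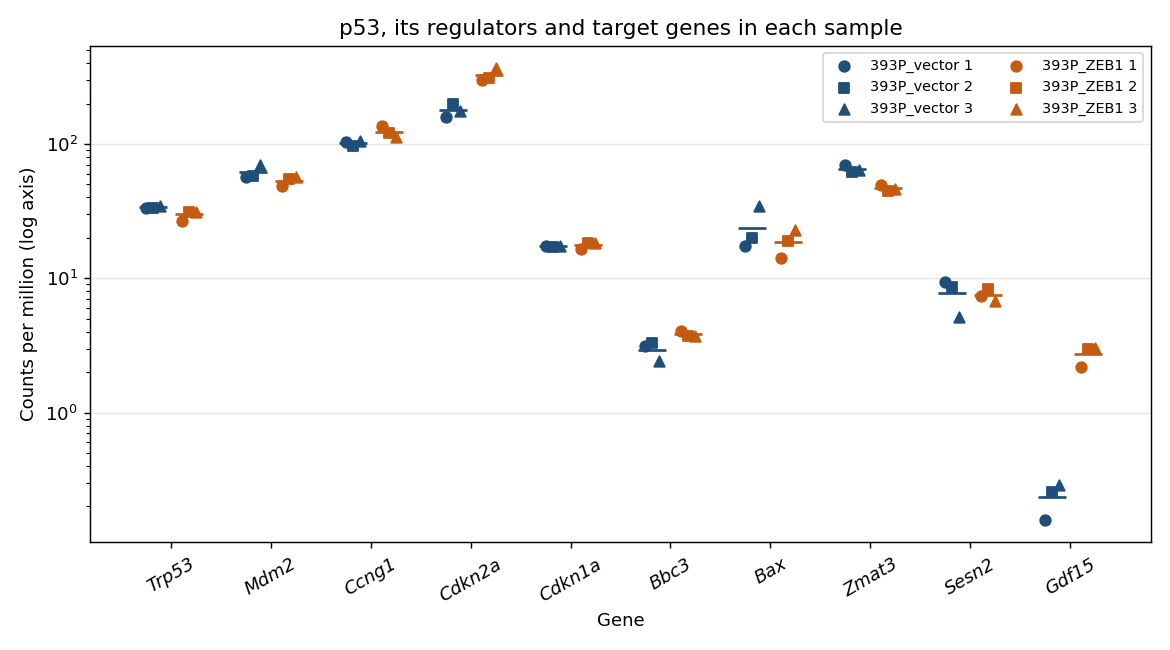
Level of each of the 10 genes in each sample, in counts per 1000000 counted reads (CPM) on a log axis, with 393P_vector samples in blue, 393P_ZEB1 samples in orange, a marker shape for each replicate and a horizontal line at each group mean. Gdf15 shows a wide gap between the groups, and Cdkn2a and Zmat3 show narrower ones. Trp53 and Cdkn1a lie close together, and vector replicate 3 sits apart for Bax (34.3 CPM) and Sesn2 (5.16 CPM).

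The DNA in front of these genes is shown because both p53 and ZEB1 act through short motifs there. RefSeq promoter windows (GRCm38.p6, 250 bases before to 50 after a transcript start) were held for 9 of the 10 genes, with 14 windows in all. The p53 response element is a pair of half-sites of 10 bases each, and the half-site, which reads the same on both strands, was found by its consensus in 5 windows, those of Trp53, Mdm2, Ccng1, Bax and 1 start of Cdkn1a. Of all 32851 promoter windows, 8.36% held at least 1 half-site. Only the Cdkn1a window among these held 2 half-sites with at most 13 bases between them, an arrangement present in 24 of all windows (0.0731%). Matches had to be exact, and in that window the 10 bases directly after GAACATGTCT missed the consensus by 1 base and are not marked. The stretches around the half-sites are printed 5′ to 3′ on the strand of the gene, all upstream of the start, with half-sites in capitals.
Cdkn1a, plus strand, chr17:29090886-29090957: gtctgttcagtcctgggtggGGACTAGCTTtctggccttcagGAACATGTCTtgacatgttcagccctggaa
Mdm2, minus strand, chr10:117710915-117710964: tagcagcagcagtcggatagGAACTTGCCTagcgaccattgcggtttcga
Ccng1, minus strand, chr11:40755442-40755491: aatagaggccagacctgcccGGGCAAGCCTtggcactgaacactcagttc
Bax, minus strand, chr7:45467070-45467119: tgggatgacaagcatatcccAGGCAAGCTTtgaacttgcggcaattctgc
Trp53, plus strand, chr11:69580264-69580313: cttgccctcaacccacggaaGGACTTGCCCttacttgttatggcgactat

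ZEB1 binds E-boxes of the form CACCTG, which reads CAGGTG on the other strand. This motif was present in 5 windows of 3 genes, Cdkn1a, Bbc3 and Gdf15, and in 20.2% of all promoter windows. The motifs that lay before a start are printed with their flanks, the E-box in capitals, because Gdf15 is the gene with the widest difference and Cdkn1a carries both motif types, in windows of different starts. Each of these 4 stretches lies between 2 starts of its gene. A match in these letters is a description of the sequence, and binding was not measured.
Gdf15, minus strand, chr8:70632268-70632297: accccctccagcCACCTGccgcctcctgtt
Bbc3, plus strand, chr7:16310023-16310052: gcgggaaggaagCACCTGggactcagggcg
Bbc3, plus strand, chr7:16310056-16310085: tgtctgggcgcaCAGGTGccacagcggtct
Cdkn1a, plus strand, chr17:29093570-29093599: aagagaatagccCAGGTGtgggggagggga

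Sequencing gave between 54442450 and 79158012 reads counted on genes per sample, so that 3 reads, taken as the floor of detection, equal at most 0.0561 CPM. Levels in CPM were computed after TMM scaling, which adjusts for the composition of each library. Zeb1, which checks the labels, was 21.2, 22.0 and 21.4 CPM in vector samples and 54.9, 48.9 and 51.3 CPM in ZEB1 samples, with the caveat that the species of the transgene is not given in the sources used here. Of 8 epithelial markers 7 fell and none rose, and all 5 mesenchymal markers rose. These 5 include Zeb1, the transfected gene, so its rise is no separate test of the mesenchymal state. Vim rose 1.33-fold and passed in 2 of 6 fits with a sample left out (edgeR adjusted p up to 0.09996). Cdh2, Fn1 and Twist1 passed in all 6. Zeb1 and Cdh2, with log2 differences of 1.26 and 2.04, lie on chromosome 18, whose tested genes had a median of 0.64. Relative to that median both were still higher, by 0.63 and 1.41 (edgeR adjusted p = 0.00271 and 0.000354). All 5 markers of lung epithelial lineage stayed at or below 0.0602 CPM, so the labelled lung origin is not visible in them. The summed levels of leukocyte, endothelial and fibroblast markers were at most 4.12, 2.46 and 3.00 CPM in any sample. Vector replicate 3 stood apart: 5.0% and 5.51% of tested genes lay at least 2-fold from vector replicates 1 and 2, against 0.0648% between those 2 and at most 0.180% among ZEB1 samples. None of the 10 genes differed 2-fold between replicates of a group, but calls that change without this sample are given with their values.

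Per kilobase of exon, which allows levels of different genes to be compared, Cdkn2a was the most abundant of the 10 transcripts in vector cells at 157 ± 16.6 CPM per kb (SD, n = 3). Ccng1 followed at 29.3 ± 1.43 and Bax at 27.7 ± 10.5 CPM per kb, and the ranges of these 2 genes overlapped, as did those of Bax and Mdm2 (20.4 ± 2.45). Trp53 stood at 18.2 ± 0.456 CPM per kb. Cdkn1a (8.54 ± 0.0321) and Zmat3 (8.43 ± 0.523) had overlapping ranges, and Sesn2 (2.92 ± 0.851), Bbc3 (1.49 ± 0.238) and Gdf15 (0.217 ± 0.0623) were separated from each other. In ZEB1 cells the order of the first 8 genes was the same, Zmat3 no longer overlapped Cdkn1a, and Gdf15 at 2.51 ± 0.440 CPM per kb ranked above Bbc3 at 1.94 ± 0.0822, although their ranges overlapped, as did those of Sesn2 and Gdf15 and those of Mdm2 and Trp53.

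Trp53 encodes p53 and lies on the plus strand at chr11:69580359-69591873 (GRCm38, 12 exons). Its level was 33.3, 33.3 and 34.8 CPM in vector samples 1 to 3 and 26.9, 31.4 and 31.3 CPM in ZEB1 samples 1 to 3. All 3 ZEB1 samples were below all 3 vector samples, yet the log2 difference of -0.18 (SE 0.11) did not pass the test (edgeR adjusted p = 0.250), and the 95% interval of the fold ran from 0.739 to 1.06. Groups that did not overlap were common, at 52.8% of all tested genes, and occurred in 7 of the 10 genes. Tested genes of chromosome 11 had a median log2 difference of 0.27. Measured against that median, Trp53 was lower by -0.44 (SE 0.11, edgeR adjusted p = 0.0196). GENCODE M21 annotates a processed pseudogene, Trp53-ps, and how reads shared with it were assigned is not given in the sources used here.

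Mdm2 encodes the ubiquitin ligase that targets p53 for degradation and lies on the minus strand at chr10:117688905-117710716 (12 exons). It was measured at 56.5, 58.3 and 70.1 CPM in vector samples and at 48.8, 54.8 and 56.4 CPM in ZEB1 samples. The highest ZEB1 sample was just below the lowest vector sample, and the log2 difference was -0.21 (SE 0.12, edgeR adjusted p = 0.229). Chromosome 10 had a median of -0.30, and relative to it the sign of the Mdm2 difference turned to 0.09 (edgeR adjusted p = 0.641).

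Ccng1 encodes cyclin G1, a p53 target that feeds back on MDM2 through protein phosphatase 2A, and lies on the minus strand at chr11:40748552-40755286 (6 exons). Vector samples had 104, 96.3 and 105 CPM and ZEB1 samples 136, 122 and 113 CPM. The groups did not overlap, with ZEB1 samples above, and the log2 difference of 0.27 (SE 0.11) missed the threshold (edgeR adjusted p = 0.0804). Without vector replicate 3 it was 0.30 and passed (edgeR adjusted p = 0.0198), and in limma voom with sample weights, a method that gave that sample a weight of 0.111, it was 0.25 (adjusted p = 0.0157). The value equals the median of chromosome 11, relative to which 0.01 remained (edgeR adjusted p = 0.965).

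Cdkn2a lies on the minus strand at chr4:89274473-89294619, and its 4 exons in the tables join those of the p16INK4a and ARF transcripts, so reads of these 2 products, one upstream of the retinoblastoma pathway and the other of p53, cannot be told apart. The level was 160, 198 and 176 CPM in vector samples and 298, 312 and 365 CPM in ZEB1 samples. The lowest ZEB1 sample was well above the highest vector sample. The log2 difference was 0.87 (SE 0.13, edgeR adjusted p = 0.00136), it passed with each of the 6 samples left out in turn, and it also passed a test against a change of 1.5-fold (adjusted p = 0.0479). The median of chromosome 4 was 0.03. Its genomic neighbours Cdkn2b and Mtap had log2 differences of 0.07 (SE 0.34, edgeR adjusted p = 0.885) and 0.19 (SE 0.21, edgeR adjusted p = 0.507), and both rose once vector replicate 3 was left out, by 0.60 and 0.48 (edgeR adjusted p = 0.00940 and 0.000882), beside 0.86 for Cdkn2a in the same fit.

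Cdkn1a encodes p21, the inhibitor of cyclin-dependent kinases through which p53 halts the cell cycle, and lies on the plus strand at chr17:29090986-29100722 (4 exons). It was measured at 17.3, 17.2 and 17.3 CPM in vector samples and at 16.4, 18.2 and 18.3 CPM in ZEB1 samples. The groups overlapped, the log2 difference was 0.03 (SE 0.11, edgeR adjusted p = 0.855) and the 95% interval of the fold ran from 0.852 to 1.22. Tested genes of chromosome 17 had a median of -0.43, the lowest among the chromosomes of the 10 genes, and relative to it Cdkn1a was higher by 0.46 (SE 0.11, edgeR adjusted p = 0.0174). In GENCODE M21, 273 exon bases (7.68%) of Cdkn1a are shared with AC167363.2 on the opposite strand, and whether reads were counted by strand is not given in the sources used here.

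**Figure D2:**
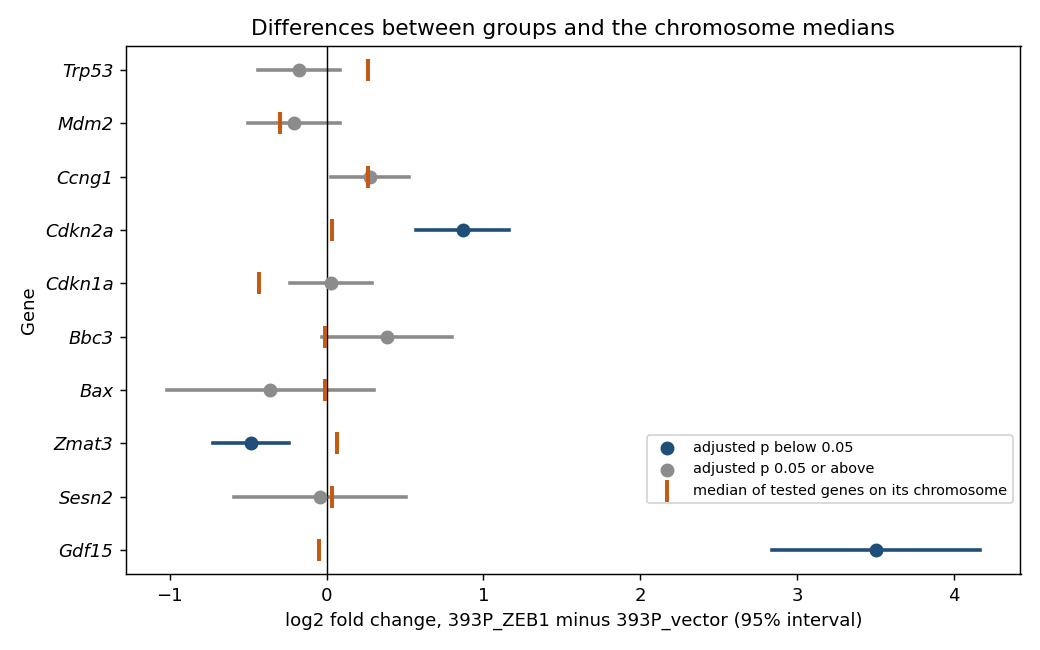
Log2 fold change of each gene, 393P_ZEB1 minus 393P_vector, as a point with its 95% interval from edgeR (blue where the adjusted p was below 0.05, gray otherwise), and the median of the tested genes on the same chromosome as an orange tick. The tick coincides with the point for Ccng1 (both 0.27) and lies on the far side of 0 from the point for Trp53. The ticks of Gdf15, Cdkn2a, Zmat3, Trp53 and Cdkn1a are outside the intervals of these genes.

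Bbc3 encodes PUMA, a BH3-only protein that disables anti-apoptotic BCL2 family members, and lies on the plus strand at chr7:16309583-16318334 (4 exons). It was a low transcript, at 3.11, 3.30 and 2.41 CPM in vector samples and 4.02, 3.73 and 3.75 CPM in ZEB1 samples. All ZEB1 samples were above all vector samples, with a log2 difference of 0.39 (SE 0.18, edgeR adjusted p = 0.127).

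Bax encodes the pore-forming effector of mitochondrial apoptosis and lies on the minus strand at chr7:45461695-45466898 (6 exons). It had 17.5, 19.9 and 34.3 CPM in vector samples and 14.1, 19.0 and 22.9 CPM in ZEB1 samples. The groups overlapped, and vector replicate 3 was 1.83 times the mean of the other 2 vector samples. The log2 difference was -0.36 (SE 0.28, edgeR adjusted p = 0.356) with all samples, -0.00 (edgeR adjusted p = 0.991) without vector replicate 3 and 0.06 in limma voom, so no direction can be given. In GENCODE M21, 192 exon bases (12.2%) of Bax are shared with Gm45808 on the same strand.

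Zmat3 (also called Wig1) encodes an RNA-binding protein that acts on mRNA stability and splicing downstream of p53, and lies on the minus strand at chr3:32334794-32365665 (6 exons). The level was 70.1, 62.3 and 64.2 CPM in vector samples and 49.6, 44.8 and 46.4 CPM in ZEB1 samples. The groups were well separated, and the log2 difference was -0.48 (SE 0.10, edgeR adjusted p = 0.00877). The call was lost, at an adjusted p of 0.0519, only when ZEB1 replicate 2 was left out, and a change beyond 1.5-fold did not pass (edgeR adjusted p = 1.00). The median of chromosome 3 was 0.06. The overlapping feature 4930429B21Rik on the other strand shares 177 bases of the Zmat3 interval and had between 4 and 12 reads per sample.

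Sesn2 encodes sestrin 2, a stress-induced inhibitor of mTORC1 signaling, and lies on the minus strand at chr4:132492807-132510456 (10 exons). It was measured at 9.42, 8.57 and 5.16 CPM in vector samples and 7.36, 8.35 and 6.73 CPM in ZEB1 samples. The groups overlapped because vector replicate 3 was the lowest and the other 2 vector samples the highest of the 6, and the log2 difference was -0.04 (SE 0.24, edgeR adjusted p = 0.907). Without vector replicate 3 it was -0.27 (edgeR adjusted p = 0.126).

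Gdf15 lies on the minus strand at chr8:70629394-70631635 in the tables (2 exons). It had 9, 15 and 24 reads in vector samples and 116, 165 and 184 reads in ZEB1 samples, or 0.16, 0.25 and 0.29 CPM against 2.17, 2.97 and 3.01 CPM. Every ZEB1 sample was several-fold above every vector sample, and in ZEB1 samples both exons held more than 10 reads each, against none, 1 and 1 in vector samples. The log2 difference was 3.50 (SE 0.28, edgeR adjusted p = 5.87e-05), it passed with each sample left out in turn, and the median of chromosome 8 was -0.05. A count of 9 in 1 vector sample is small, so the size of the change is less certain than its direction.

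The 95% intervals of the fold differed in width between the genes. Over all 10 genes, 4 intervals lay within a 1.5-fold change either way and 7 within a 2-fold change. The widest belonged to Gdf15, Bax and Sesn2, for which vector samples varied by a coefficient of variation of 28.8%, 38% and 29.2%, whereas Cdkn1a varied by 0.376% and Trp53 by 2.51%. Log2 differences were positive for 5 genes and negative for 5, with a median of -0.01 against -0.02 over all tested genes.

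**Figure D3:**
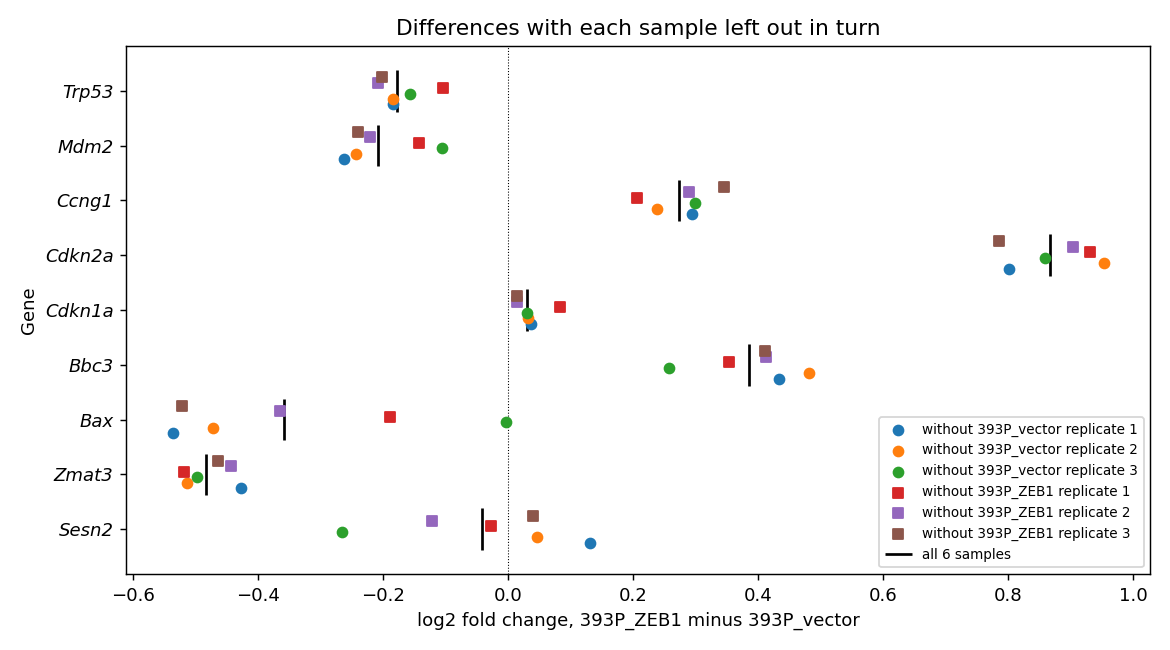
Log2 fold change, 393P_ZEB1 minus 393P_vector, with each of the 6 samples left out in turn (colored points, circles for vector and squares for ZEB1 samples) and with all samples (black line), for the 9 genes other than Gdf15, whose values are near 3.50. Cdkn2a stays well above 0 and Zmat3 below it, Bax moves to -0.00 without vector replicate 3, and Sesn2 crosses 0.

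Regulators of p53 were next examined in a list of 16 genes, the p53 family, activating kinases and enzymes that set p53 protein levels, of which 14 were tested. Among them 2 rose, 1 fell and 11 did not pass, or 21.4% called beside 37.6% of all tested genes, and the median log2 difference was 0.02. Ppm1d, which encodes the phosphatase WIP1 that switches p53 signaling off, rose by 0.46 (SE 0.11, edgeR adjusted p = 0.0137). Mdm4, which encodes the MDM2 relative that masks the p53 activation domain, rose by 0.40 (SE 0.11, edgeR adjusted p = 0.0227). Daxx, which encodes a histone chaperone that binds MDM2, fell by 0.56 on the log2 scale (edgeR adjusted p = 0.0247). Ppm1d passed with each sample left out in turn, whereas Mdm4 and Daxx each passed in 1 of 6 such fits, that without vector replicate 3 (edgeR adjusted p = 0.00490 and 0.000153), and reached an adjusted p of 0.0862 and 0.0953 in the others. Relative to their chromosomes none of these 3 passed (edgeR adjusted p = 0.225, 0.0511 and 0.576), and only the gene of the deubiquitinase Usp7 did (-0.37, edgeR adjusted p = 0.0498). Without vector replicate 3, 6 rose and 3 fell, in a fit that called 3700 genes higher and 3776 lower over all tested genes. Trp63 and Trp73, the other family members, had at most 0.180 and 0.131 CPM in any sample.

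Targets of p53 other than the 10 genes above were more often lower than higher in 393P_ZEB1 cells. Over 5 lists, 46 of 48 genes were tested, 18 fell and 4 rose, or 39.1% and 8.70% beside 19.3% and 18.3% of all tested genes, and the median log2 difference was -0.40 against -0.02. Without vector replicate 3 these counts were 25 and 6, and relative to chromosome medians 15 and 6. Over all tested genes, lower and higher calls numbered 2679 and 2539 with all samples. They numbered 3776 and 3700 without vector replicate 3, and 1992 and 2235 relative to chromosome medians. The lists were chosen with earlier results of these data known, and the shares called in them were not tested against those of other genes.

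**Figure D4:**
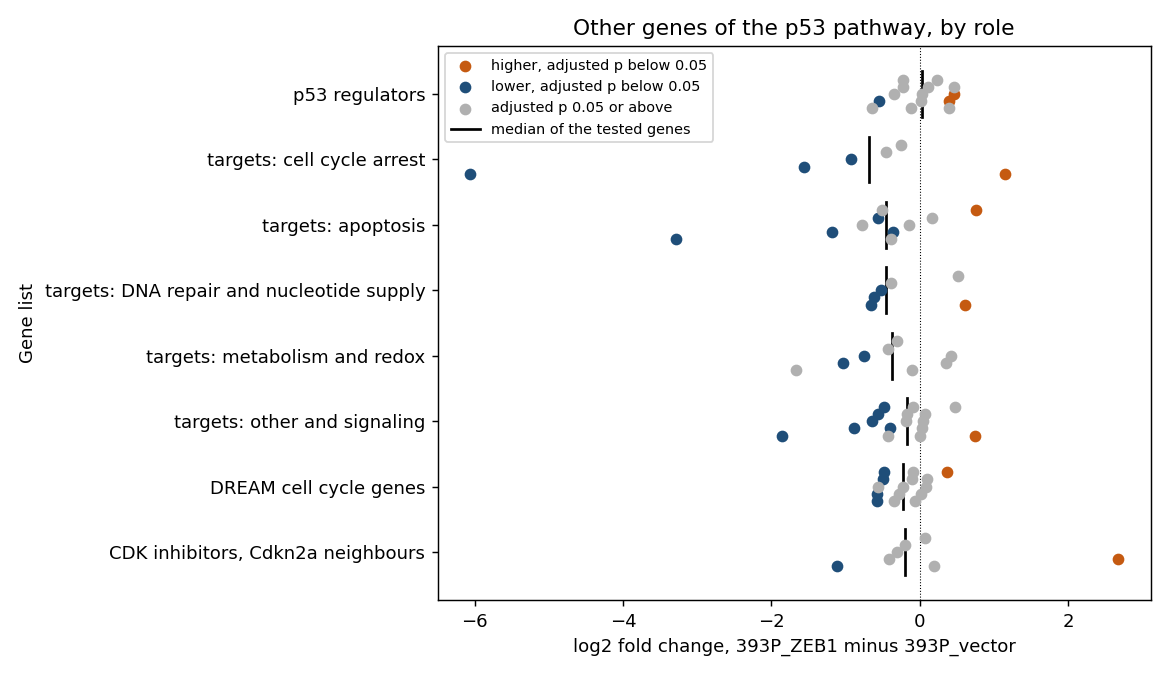
Log2 fold change, 393P_ZEB1 minus 393P_vector, of each tested gene in 8 lists of the p53 pathway, colored orange where higher and blue where lower at an adjusted p below 0.05 and gray otherwise, with the median of each list as a black line. The medians of all 5 target lists lie below 0, and Sfn (-6.06) and Perp (-3.29) are farthest from it.

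Among 6 targets that act in cell cycle arrest, 1 rose and 3 fell, or 66.7% called beside 37.6% of all tested genes. Sfn, which encodes 14-3-3 sigma, a protein of epithelial cells that holds cyclin B1 and CDK1 in the cytoplasm, went from 34.8, 40.8 and 20.7 CPM to 0.411, 0.450 and 0.573 CPM, a log2 difference of -6.06 (SE 0.33, edgeR adjusted p = 7.13e-06). Plk2, a polo-like kinase, fell by 1.57 on the log2 scale and Gtse1, a microtubule-associated protein that restrains p53, by 0.92 (edgeR adjusted p = 2.32e-05 and 0.00120). Btg2, an anti-proliferative cofactor of mRNA deadenylation, rose by 1.14 (SE 0.16, edgeR adjusted p = 0.00105). Without vector replicate 3, 1 rose and 5 fell, in a fit with more calls over all tested genes as well.

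Of 10 tested genes of apoptosis, 1 rose and 4 fell, or 50% called beside 37.6% of all tested genes. Perp, which encodes a membrane protein of desmosomes in epithelia, went from 85.6, 74.5 and 123 CPM to 9.98, 9.13 and 9.88 CPM, a log2 difference of -3.29 (SE 0.20, edgeR adjusted p = 1.45e-05). Tnfrsf10b, the TRAIL receptor, fell by 1.18 and Pmaip1, which encodes the BH3-only protein NOXA, by 0.57 on the log2 scale (edgeR adjusted p = 0.000214 and 0.00381), and Ei24 fell as well. Trp53inp1, a stress-induced partner of p53, rose by 0.75 (SE 0.18, edgeR adjusted p = 0.0151). The calls of Trp53inp1 and Ei24 were lost in some fits with a sample left out, at an adjusted p of up to 0.0590 and 0.163. Sfn and Perp are also epithelial genes, and they moved in the same comparison in which 7 of 8 epithelial markers fell. Summed levels of these markers were 4721 to 5389 CPM in vector samples and 2746 to 3043 CPM in ZEB1 samples. Most of each sum came from the keratins Krt8, Krt18 and Krt19, with vector means of 894, 2264 and 1272 CPM. Their log2 differences were -0.61, -0.77 and -0.39, and that of Krt19 did not pass (edgeR adjusted p = 0.0809). Epcam, Cdh1, Cldn4, Cldn7 and Esrp1 had log2 differences of -6.53, -4.09, -8.40, -6.03 and -7.75. The part of the epithelial state in the change of Sfn and Perp was not tested.

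DNA repair genes gave 1 rise and 3 falls of 6, or 66.7% called beside 37.6% of all tested genes. The translesion polymerase gene Polk rose by 0.60 (SE 0.12, edgeR adjusted p = 0.00517), whereas Polh, a related polymerase, fell by 0.66, Ddb2, a damage sensor of nucleotide excision repair, by 0.61 and Ercc5, a nuclease of the same pathway, by 0.52 on the log2 scale (edgeR adjusted p = 0.00322, 0.0111 and 0.00943). Ercc5 lost its call without ZEB1 replicate 2 (edgeR adjusted p = 0.0552). Polh lies on chromosome 17 and did not pass relative to its median (-0.23, edgeR adjusted p = 0.176). Of 8 metabolic targets none rose and 2 fell, or 25% called. These were Ddit4, an mTORC1 inhibitor, by 1.03 and Tigar, a fructose bisphosphatase, by 0.76 on the log2 scale (edgeR adjusted p = 0.00272 and 0.000821). Without vector replicate 3, a fit with more calls over all tested genes, none rose and 4 fell. Of 16 other targets, 1 rose and 6 fell, or 43.8% called. Lif, a cytokine of the interleukin-6 family, rose by 0.74 (SE 0.15, edgeR adjusted p = 0.00677), and the falls were led by Pltp, a phospholipid transfer protein, at -1.86 and Rps27l, a ribosomal protein paralog, at -0.89.

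Cell cycle genes that p53 lowers indirectly through p21 and the DREAM repressor complex were examined in a list of 15. Of these 1 rose and 4 fell, or 33.3% called beside 37.6% of all tested genes, with a median log2 difference of -0.23, and without vector replicate 3 the counts were 1 and 7. Ccna2 (cyclin A2), Aurka (Aurora kinase A) and Cdk1 fell by 0.58, 0.58 and 0.50 on the log2 scale (edgeR adjusted p = 0.0457, 0.00269 and 0.00389), as did Cenpf. Ccna2 moved to -0.33 without vector replicate 3 (edgeR adjusted p = 0.00805), and its call was lost without any one of the 3 ZEB1 samples (edgeR adjusted p up to 0.154). Cenpf lost its call in 1 of 6 fits with a sample left out, at an adjusted p of 0.0606. Cdk1 did not pass relative to chromosome 10 (-0.21, edgeR adjusted p = 0.130). Cdc25c, a phosphatase that activates CDK1, rose by 0.36 (edgeR adjusted p = 0.0444), but chromosome 18 had a median of 0.64, and relative to it Cdc25c was at -0.27 (edgeR adjusted p = 0.125). With a sample left out, Cdc25c passed in 1 of 6 fits, that without vector replicate 3 (0.28, edgeR adjusted p = 0.0208), and reached 0.134 in the others. Among 7 genes that are other CDK inhibitors or neighbours of Cdkn2a, 28.6% were called beside 37.6% of all tested genes. Cdkn1b, which encodes p27, fell by 1.12 on the log2 scale (SE 0.14, edgeR adjusted p = 0.000712). The Cdkn2a neighbour Dmrta1, a low transcript, rose by 2.67.

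The p53-controlled hairpins Mir34a, Mir34b and Mir34c were not testable. Mir34a had 16, 3 and 11 reads in vector samples and 0, 1 and 0 in ZEB1 samples, and Mir34b and Mir34c had at most 1 read in any sample. These are reads on hairpin precursors in a total RNA library and not levels of mature microRNA.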

How the data were processed

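The authors deposited 1 table per sample with read counts for each RefSeq gene, exon length and RPKM (reads scaled by exon length and library size), in GRCm38 coordinates. The aligner and counter are not given in the sources used here, and the RPKM values were used only to check the counts. The counts were tested as deposited. Genes were kept by edgeR filterByExpr (minimum count 10), scaled by TMM and tested with a robust quasi-likelihood fit (edgeR 4.0.16, R 4.3.3, n = 3 per group, no block). Standard errors are the log2 difference divided by the root of F. The exact permutation test cannot fall below 0.1 with 3 against 3. The test was also run on simulated data with 200 changed genes, whose outcome is not given here and is not used as support. For chromosome-relative values, the median log2 difference of a chromosome was used as an offset. Intervals and the floor of 3 reads cover counting error or replicate spread only. The 10 genes and the lists were chosen with earlier results of these data known. All 10 genes are described, and from each list up to 3 risen and 3 fallen genes of at least 1 CPM. A gene that this rule would name is not reported here. Genes named beyond these are completions of small counts, chosen after their values were seen. Alternatives used DESeq2 1.42.0 and limma 3.58.1. Promoter sequences came from RefSeq, with none held for Zmat3.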

Additional observations from a re-analysis of the deposited data

How the results depend on the processing

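Across 159 recalculated log2 differences of the 10 genes, 148 kept direction and side of the threshold. The signs turned for Mdm2 (0.087, chromosome medians subtracted), Bax (0.058, limma voom) and Sesn2 (0.13, 0.05 and 0.04 without vector replicate 1, vector replicate 2 and ZEB1 replicate 3). The number of higher genes among the 10 was 1 with at least 10 counts required in every sample, since Gdf15 was then not tested, and 2 to 3 with a sample left out. The number of lower genes was 2 with chromosome medians subtracted, 0 against a 1.5-fold change and 0 to 1 with a sample left out. Trp53 passed with chromosome medians subtracted (-0.44, adjusted p = 0.0196) and ranged from -0.21 to -0.10 with a sample left out, and Zeb1 from 1.22 to 1.31. For the p53 target lists, higher genes numbered 7 in limma voom, 1 against a 1.5-fold change and 3 to 6 with a sample left out, and lower genes 7 against a 1.5-fold change and 14 to 25 with a sample left out. Over all tested genes, higher calls numbered 3977 in limma voom, 1584 at an adjusted p of 0.01, 1081 against a 1.5-fold change and 1861 to 3700 with a sample left out. Lower calls numbered 4094, 1545, 1118 and 1784 to 3776 under the same settings. Of 432 values for other named genes 376 kept direction and side, 55 lost the call and Cdc25c turned to -0.27 with chromosome medians subtracted. The cause of these changes was not tested. Deviations of same-numbered samples correlated at 0.28, -0.21 and -0.04, and those of other pairs at -0.18 to 0.22. So few values cannot decide whether replicate numbers pair the samples. A replicate block changed no call among the 10 genes (Trp53 -0.18, Zmat3 -0.48, Cdkn2a 0.87 and Gdf15 3.53 on the log2 scale). With that block Mdm4, Ccna2 and Cdc25c lost their calls (edgeR adjusted p = 0.0718, 0.0771 and 0.0814), as did Ei24 (0.0771).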
